A study of Mus musculus with 2 samples.

Results

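The named small nucleolar RNAs and small Cajal body RNAs of the mouse were examined in total RNA of skeletal muscle. Members were the genes whose symbol starts with Snord, Snora or Scarna followed by a digit, and 150 of the 55536 Ensembl genes in the deposited gene tables met this rule. They comprised 99 C/D box RNAs (Snord), 42 H/ACA box RNAs (Snora) and 9 Cajal body RNAs (Scarna). The 150 genes carry 147 symbols, because Snord80, Snora43 and Snora16a each name 2 gene entries, and they have 137 distinct sequences. The 2 entries of each of these symbols overlap on the same strand and were counted as separate members. A further 1409 genes annotated as snoRNA or scaRNA carry other symbols and serve here as a comparison set.

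RNA came from the gastrocnemius, the large calf muscle, of male B6CASTF1/J mice aged 36 days, an F1 cross of C57BL/6 and CAST, with no transgene, deletion or treatment named in the labels. Libraries were stranded, reduced in ribosomal RNA, made from 300 ng of total RNA and spiked with ERCC standards. There was 1 group with 2 biological replicates, called replicate 2 and replicate 1 as in the labels. They have separate biosamples and mouse numbers but share a donor entry, so the spread between them may be partly technical, and with no second group no p-value was computed. Replicate 2 held 38754338 expected counts, estimated reads per gene that can be fractional, and replicate 1 held 36952277. Levels are in TPM, a relative abundance that divides the count by length and has the same total in each library. Markers of the labelled tissue were high: the summed level of Acta1, Ckm, Mylpf, Tnnt3, Myh4 and Atp2a1 was 97898 TPM in replicate 2 against 92565 TPM in replicate 1, while 2 liver markers were at 0 TPM in both.

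Small nucleolar RNAs guide the chemical modification of other RNAs by base pairing. C/D box RNAs direct 2′-O-methylation by the methyltransferase fibrillarin, H/ACA box RNAs direct pseudouridylation by dyskerin, and a few of either kind act in the cleavage of the ribosomal RNA precursor instead. Cajal body RNAs carry C/D boxes, H/ACA boxes or both and guide modification of the spliceosomal small nuclear RNAs. Most mammalian members lie in introns of host genes and are released from the spliced intron by trimming.

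The sequences shown first are those on which the measurements turn: abundant members of each class with up to 300 bases and, last, a C/D box RNA that is too short to be counted. They are the annotated GENCODE M21 transcripts on mm10, 5′ to 3′, and they differ in the length that decided which members could receive reads. Capitals mark the C box TGATGA where it fell in the first 20 bases, the D box CTGA in the last 15 bases, and the ACA that ends 3 bases before the 3′ end. Scarna6 lies at chr1:87784556-87784820 (plus strand), Snora73b at chr4:132352322-132352526 (minus strand), Snora73a at chr4:132352775-132352979 (minus strand), Snora23 at chr7:110046364-110046547 (plus strand), Snord17 at chr2:144265979-144266216 (minus strand), Snord15b at chr7:99479563-99479707 (minus strand), Snord22 at chr19:8725866-8725991 (plus strand) and Snord16a at chr9:64175423-64175521 (plus strand).
Scarna6: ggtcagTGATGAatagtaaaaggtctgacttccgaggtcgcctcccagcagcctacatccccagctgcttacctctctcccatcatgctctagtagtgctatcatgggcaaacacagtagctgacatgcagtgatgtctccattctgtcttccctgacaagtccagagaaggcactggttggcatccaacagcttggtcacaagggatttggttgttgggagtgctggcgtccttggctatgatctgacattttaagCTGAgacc
Snora73b: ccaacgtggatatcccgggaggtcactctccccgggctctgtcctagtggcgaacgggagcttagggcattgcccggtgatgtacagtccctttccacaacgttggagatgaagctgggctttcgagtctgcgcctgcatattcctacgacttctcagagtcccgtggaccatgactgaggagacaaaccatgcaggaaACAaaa
Snora73a: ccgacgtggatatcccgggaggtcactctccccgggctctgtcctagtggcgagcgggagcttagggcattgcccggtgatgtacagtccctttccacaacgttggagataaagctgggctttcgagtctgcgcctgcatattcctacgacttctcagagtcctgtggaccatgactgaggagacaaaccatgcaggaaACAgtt
Snora23: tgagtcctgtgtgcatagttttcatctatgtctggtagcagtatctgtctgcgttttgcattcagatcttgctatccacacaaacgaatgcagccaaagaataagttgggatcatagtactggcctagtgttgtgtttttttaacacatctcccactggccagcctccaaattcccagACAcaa
Snord17: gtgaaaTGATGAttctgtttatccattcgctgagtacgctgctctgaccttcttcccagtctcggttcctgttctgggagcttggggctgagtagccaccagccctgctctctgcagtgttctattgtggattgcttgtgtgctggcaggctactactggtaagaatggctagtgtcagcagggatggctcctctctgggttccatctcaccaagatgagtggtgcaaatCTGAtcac
Snord15b: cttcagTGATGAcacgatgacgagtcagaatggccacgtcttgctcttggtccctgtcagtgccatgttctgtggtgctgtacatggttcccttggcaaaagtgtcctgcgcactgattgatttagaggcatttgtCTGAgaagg
Snord22: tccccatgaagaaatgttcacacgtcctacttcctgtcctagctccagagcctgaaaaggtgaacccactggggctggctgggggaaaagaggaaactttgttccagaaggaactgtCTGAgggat
Snord16a: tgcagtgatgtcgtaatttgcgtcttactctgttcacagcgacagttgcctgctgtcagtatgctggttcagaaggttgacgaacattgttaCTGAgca

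The C/D and H/ACA classes are named for their boxes, so the following counts describe the annotated sequences and test nothing. TGATGA within the first 20 bases was found in 70 of 99 C/D box RNAs (70.7%), in 0 of 42 H/ACA box RNAs and in 4 of 9 Cajal body RNAs, against 1.87% of 21192 other transcripts of 60 to 420 bases. CTGA within the last 15 bases was found in 92 C/D box RNAs (92.9%), 3 H/ACA box RNAs and 5 Cajal body RNAs, against 9.07% of the other transcripts. TGATGA and CTGA can not overlap at these ends, whereas CTGA may overlap the final ACA, and 68 C/D box RNAs held both. The H/ACA signature, ACA ending 3 bases before the 3′ end, was found in 35 of 42 H/ACA box RNAs (83.3%), 0 C/D box RNAs and 2 Cajal body RNAs, against 2.88% of the others. The H box, searched as ANANNA in the middle stretch when each RNA was cut into 3 equal lengths, was found in 39 H/ACA box RNAs (92.9%) but also in 72.7% of the other transcripts, so this pattern separates little. Only the RNA's own strand was searched, and a match is a description of letters, not of binding. Scarna10 and Scarna6 show C and D boxes at their ends, which bring the termini together in a C/D snoRNP.

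Length differed between the classes. The median annotated length was 84 bases for C/D box RNAs (range 64 to 238), 132.5 bases for H/ACA box RNAs (121 to 205) and 140 bases for Cajal body RNAs (70 to 414). In the gene tables the effective length, the number of positions at which a read can start, was the annotated length minus 99, as for reads of 100 bases. RNAs of up to 99 bases therefore had an effective length of 0 and are listed at 0 reads whatever their abundance. This applied to 89 of the 150 members: 87 C/D box RNAs, 0 H/ACA box RNAs and 2 Cajal body RNAs, Scarna9 (70 bases) and Scarna17 (79 bases). The boundary lay between Snord16a, whose 99 bases gave an effective length of 0, and Snord13, whose 104 bases gave an effective length of 5. No level can be given for those 89 members, and their 0 is not a measurement of absence.

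**Figure D1:**
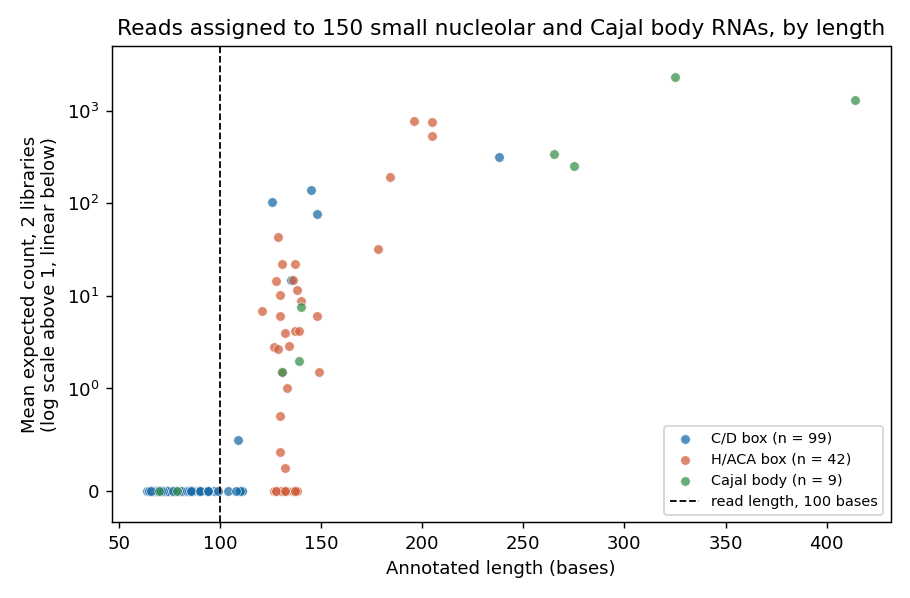
Mean expected count of each of the 150 members over the 2 libraries (y axis, log scale above 1 and linear below) against annotated length in bases (x axis), coloured by class, with a dashed line at the read length. No member left of the line has a read, and the Cajal body RNAs with the most reads are also the longest.

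Reads were assigned in both libraries to 33 of the 150 members (22%): 5 of 99 C/D box RNAs (5.05%), 23 of 42 H/ACA box RNAs (54.8%) and 5 of 9 Cajal body RNAs (55.6%). A further 8 members had reads in a single library, and 109 had none. Of the 61 members with an effective length above 0, 20 had no reads in either library: 6 C/D box RNAs and 14 H/ACA box RNAs. For these a count of 0 allows up to 3 reads per library, and the short effective lengths make that limit high. Snord13, a C/D box RNA of ribosomal precursor processing, could have had up to 18.9 TPM (replicate 2) or 19.0 TPM (replicate 1) without a read, and Snord67 up to 7.89 TPM (replicate 2) or 7.92 TPM (replicate 1). Among the H/ACA box RNAs without reads the limit in replicate 2 was between 2.43 TPM for Snora47 and 3.38 TPM for Snora28. These limits cover counting error only and leave out reads that could have been assigned to a host. The deposited upper credibility bound in replicate 2 reached 5.17 TPM for Snora28 and 6.79 TPM for Snora52, which both lie whole within a transcript of another gene.

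Detection followed length within the members and outside them. At 121 to 150 bases, 23 of 44 members had reads in both libraries (52.3%), against 46 of 849 snoRNA and scaRNA genes with other symbols (5.42%) and 66 of 1526 Ensembl genes of any kind outside the members (4.33%). At 201 to 420 bases the counts were 7 of 7 members, 15 of 31 genes with other symbols (48.4%) and 457 of 6068 Ensembl genes (7.53%). At 100 to 120 bases 0 of 7 members, all of them C/D box RNAs, had reads in both libraries, against 0 of 133 genes with other symbols and 7 of 1980 Ensembl genes (0.354%). At up to 99 bases no gene of any set had reads: 0 of 89 members, 0 of 373 genes with other symbols and 0 of 2309 Ensembl genes. Within the 121 to 150 base range, 4 of 4 C/D box RNAs, 18 of 37 H/ACA box RNAs and 1 of 3 Cajal body RNAs were detected. The C/D box RNAs, with the lowest detected share over all lengths, had the highest share in this range, on 4 genes.

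**Figure D2:**
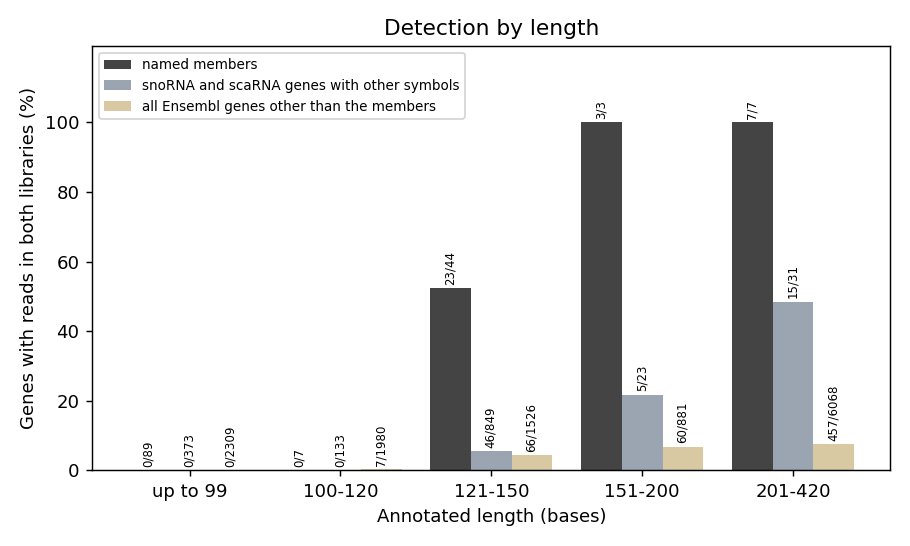
Percent of genes with reads in both libraries (y axis) by annotated length in bases (x axis) for the members, for snoRNA and scaRNA genes with other symbols, and for all Ensembl genes outside the members, with counts over the bars. The members stand at 52.3% at 121 to 150 bases and at 100% from 151 bases on, and all sets stand at 0 up to 99 bases.

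Together the members took 6489 expected counts in replicate 2 and 8189 in replicate 1, or 0.0167% of the library in replicate 2 (Wilson 95% interval 0.0163 to 0.0172) and 0.0222% in replicate 1 (0.0217 to 0.0226). The Cajal body RNAs, the smallest class by number, took the most reads, with 3805 counts in replicate 2 and 4604 in replicate 1. H/ACA box RNAs took 2160 counts in replicate 2 and 2810 in replicate 1. C/D box RNAs took 523 counts in replicate 2 and 775 in replicate 1. Every class had fewer reads in replicate 2 than in replicate 1, and the order of the classes was the same in both.

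The order of the classes depended on the scale. By expected count the Cajal body RNAs held 57.4% ± 1.71 of the members' reads, H/ACA box RNAs 33.8% ± 0.720 and C/D box RNAs 8.77% ± 0.991 (mean ± SD, n = 2). TPM divides by effective length, and on that scale H/ACA box RNAs led with 49.6% ± 0.0397, followed by Cajal body RNAs with 31.3% ± 1.36 and C/D box RNAs with 19.1% ± 1.40. When the counts were divided by the annotated length instead, H/ACA box RNAs held 44.3% ± 0.245, Cajal body RNAs 43.0% ± 1.41 and C/D box RNAs 12.7% ± 1.17. The first and second classes then differed by less than the SD of the Cajal body share. The TPM shares rest on the gene table's effective length, which takes off only 99 bases. In the second transcript table, described below, the median taken off long transcripts was 340 bases in replicate 2 and 335 bases in replicate 1. That is more than the length of every member but Scarna2, so TPM levels of short members depend on the length model. In absolute terms the summed TPM was 771 in replicate 2 and 1043 in replicate 1 for H/ACA box RNAs. For Cajal body RNAs it was 502 TPM in replicate 2 against 640 TPM in replicate 1, and for C/D box RNAs 282 TPM in replicate 2 against 423 TPM in replicate 1. With 87 of 99 C/D box RNAs beyond reach of the counting, their sum describes 12 genes and not the class.

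**Figure D3:**
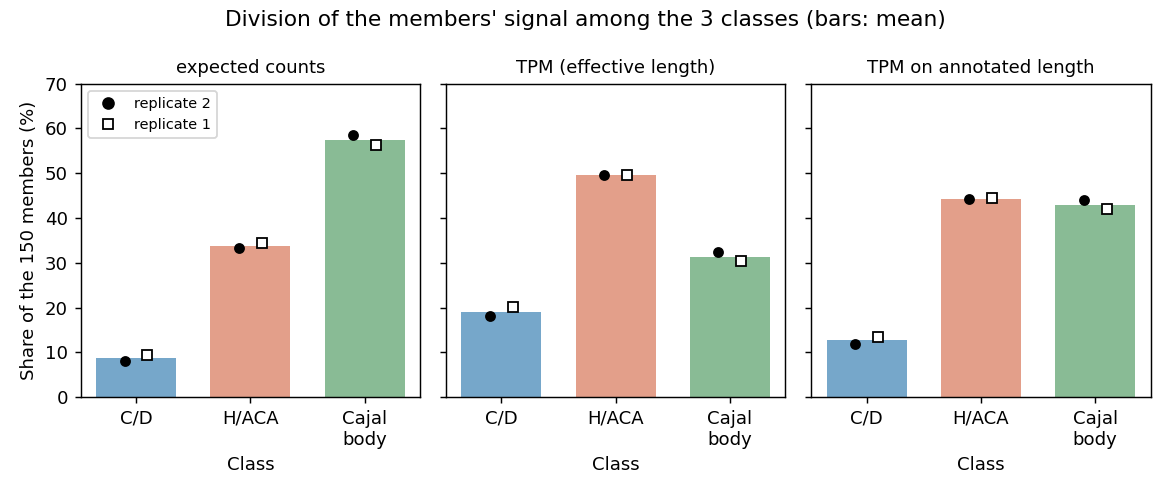
Share of the members' total (y axis, percent) held by each class (x axis) by expected counts, by TPM and by TPM computed on annotated length; bars are means and the symbols are the libraries. Cajal body RNAs lead by counts at 57.4%, H/ACA box RNAs lead by TPM at 49.6%, and these classes lie at 43.0% and 44.3% on annotated length.

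Each class was carried by a few RNAs. Scarna10 alone made up 54.4% of the Cajal body counts, Snord17 48.5% of the C/D box counts and Snora74a 31.1% of the H/ACA box counts. The 3 leading members made up 93.7% of the Cajal body counts, 85.9% of the C/D box counts and 83.3% of the H/ACA box counts. Over all 150 members, the leading 5 made up 77.2% of the reads. The median level of the detected members was 71.7 TPM for 5 C/D box RNAs, 9.76 TPM for 23 H/ACA box RNAs and 65.3 TPM for 5 Cajal body RNAs. These medians cover unlike sets and do not rank the classes by abundance. Only 12 of 99 C/D box RNAs could be counted. The detected H/ACA box RNAs include some with few reads, such as Snora62 with 1 in replicate 2 and 2 in replicate 1.

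Among the Cajal body RNAs, Scarna10, a guide of mixed C/D and H/ACA type that in human cells modifies the U5 spliceosomal RNA, was the highest of all members. It had 1883 expected counts (263 TPM) in replicate 2 and 2692 (377 TPM) in replicate 1. Scarna2, a C/D box type guide for the U2 spliceosomal RNA in human cells, had 1392 counts (139 TPM) in replicate 2 and 1229 (124 TPM) in replicate 1. Scarna10 was therefore the higher of these RNAs in both libraries, and Scarna2 was the only member with a mean count of at least 50 that stood higher in replicate 2.

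Scarna6 had 281 counts (53.4 TPM) in replicate 2 and 404 (77.1 TPM) in replicate 1. Scarna13, an H/ACA type RNA that lies in an intron of the noncoding gene Snhg10, had 246 counts (44.1 TPM) in replicate 2 and 260 (46.8 TPM) in replicate 1. Scarna6 stood above Scarna13 in both libraries, by counts and by TPM. The other Cajal body RNAs were near or at 0: Scarna3a had 3 counts in replicate 2 and 12 in replicate 1, Scarna3b had 0 in replicate 2 and 4 in replicate 1, and Scarna8 had 0 in replicate 2 and 3 in replicate 1.

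Among the H/ACA box RNAs, the leading 3 are long. Snora74a, the U19 RNA, a guide for the large ribosomal subunit RNA encoded on chromosome 18, had 701 counts (228 TPM) in replicate 2 and 845 (276 TPM) in replicate 1. Snora73b, a copy of the U17 RNA that acts in cleavage of the ribosomal precursor and not in pseudouridylation, had 653 counts (194 TPM) in replicate 2 and 870 (260 TPM) in replicate 1. Snora73a, the other copy, had 488 counts (145 TPM) in replicate 2 and 585 (175 TPM) in replicate 1. All of them stood lower in replicate 2, and the b copy stood above the a copy in both libraries.

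The Snora73 copies have 205 bases each, differ at 7 positions and are 96.6% identical, and both lie within the noncoding host gene Snhg3. Their expected counts were fractional, so the authors' counting split some reads between copies or with Snhg3, and the difference between the copies is uncertain. Their sum was 1141 counts in replicate 2 and 1455 in replicate 1. Snora23, a guide for the large ribosomal subunit RNA in an intron of Ipo7, an importin gene, had only whole counts and shared no stretch of 40 bases with another gene's transcript. It had 157 counts (58.3 TPM) in replicate 2 and 224 (83.5 TPM) in replicate 1.

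Other H/ACA box RNAs among the 10 highest by TPM had few reads. Snora44, in Snhg12, had 30.9 counts (32.5 TPM) in replicate 2 and 55.6 (58.7 TPM) in replicate 1. Snora21, in the ribosomal protein gene Rpl23, had 16 counts (13.3 TPM) in replicate 2 and 28 (23.3 TPM) in replicate 1. Both stood lower in replicate 2, although the deposited intervals of each overlapped between the libraries.

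Snora78, in Snhg9, had 16 counts (17.4 TPM) in replicate 2 and 13 (14.2 TPM) in replicate 1. Snora81, in Eif4a2, had 19.2 counts (7.66 TPM) in replicate 2 and 44.9 (18.02 TPM) in replicate 1. Its intervals did not overlap. Snora5c, in Tbrg4, had 15.5 counts (13.2 TPM) in replicate 2 and 14.2 (12.1 TPM) in replicate 1. Snora62 had the lowest mean TPM of the detected H/ACA box RNAs, with 1 count in replicate 2 and 2 in replicate 1.

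Among the C/D box RNAs, Snord17 had the most reads: 254 counts (57.7 TPM) in replicate 2 and 376 (85.7 TPM) in replicate 1. It is a methylation guide for the large ribosomal subunit RNA, it lies in an intron of Snx5, a sorting nexin gene, and its counts were whole. Snord22, an RNA of ribosomal precursor processing in Snhg1, had 75.7 counts (88.5 TPM) in replicate 2 and 131 (153 TPM) in replicate 1. It was the highest C/D box RNA by mean TPM at an effective length of 27 bases, where each read is worth 1.17 TPM in either library. By TPM on annotated length Snord17 had 51.2 ± 14.7 and Snord22 had 31.7 ± 12.3 (SD, n = 2), so their order turned with the length used.

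Snord15b, in the ribosomal protein gene Rps3, had 128 counts (87.6 TPM) in replicate 2 and 152 (104 TPM) in replicate 1. Snord15a, in another part of Rps3, had 53 counts (34.1 TPM) in replicate 2 and 99 (64.0 TPM) in replicate 1. Snord15b stood above Snord15a in both libraries, but its whole sequence lies within an annotated Rps3 transcript and its counts were fractional, while Snord15a lies in an intron and had whole counts. Snord118, the U8 RNA that is needed for maturation of the large subunit RNAs and has its own transcription unit on chromosome 11 (69073427-69073561, plus strand), had 12 counts (10.5 TPM) in replicate 2 and 18 (15.8 TPM) in replicate 1. Snord23 had 1 count in replicate 2 and 0 in replicate 1.

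The C/D box families known for imprinted, repeated genes gave no values. Snord116, whose copies lie in the imprinted host Snhg14 on chromosome 7, had 17 members of 94 bases with 4 distinct sequences, all with an effective length of 0 and 0 reads. Its host Snhg14 had 0.780 TPM in replicate 2 against 1.19 TPM in replicate 1. Snord113, Snord114 and Snord115 had no member under these symbols. The 4 Snord14 genes, of 86 to 90 bases, were likewise beyond counting, although Hspa8, the host of Snord14c, Snord14d and Snord14e, stood at 481 TPM in replicate 2 against 509 TPM in replicate 1.

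In the order of mean TPM the 12 members with a mean count of at least 50 were Scarna10, Snora74a, Snora73b, Snora73a, Scarna2, Snord22, Snord15b, Snord17, Snora23, Scarna6, Snord15a and Scarna13. The first 4 kept the same rank in both libraries. Among neighbours in this order, the ranges of the 2 libraries were apart only for Snora73b over Snora73a, Snora73a over Scarna2 and Snord15b over Snord17. The ranges of the other neighbours overlapped. Compared within each library, 8 of the 11 neighbouring pairs stood in the same order in both libraries. The exceptions were Scarna2 with Snord22, Snord17 with Snora23, and Snord15a with Scarna13.

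**Figure D4:**
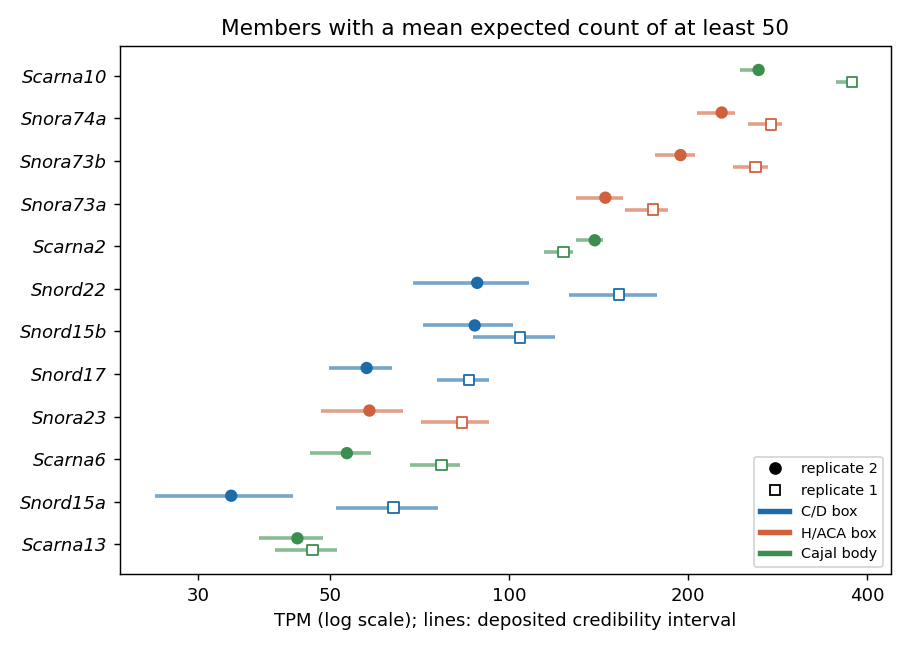
TPM (x axis, log scale) of the 12 members with a mean expected count of at least 50, in order of mean TPM from the top; filled circles are replicate 2, open squares are replicate 1, and lines are the deposited credibility intervals. All but Scarna2 stand lower in replicate 2, and the intervals overlap for Snord15b and Scarna13.

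The libraries differed in the same direction for nearly all of these RNAs. Of the 12 members, 11 had a lower TPM in replicate 2 than in replicate 1, while 49% of the 11632 Ensembl genes with a mean count of at least 50 were lower in replicate 2. The log2 ratio of TPM + 0.1, replicate 2 over replicate 1, had a median of -0.47 over the 12 members, with a range of -0.90 to 0.17, against a median of 0.00 over all genes tested. The lowest 3 ratios were those of Snord15a (-0.90), Snord22 (-0.79) and Snord17 (-0.57), and the highest 3 those of Scarna2 (0.17), Scarna13 (-0.08) and Snord15b (-0.25). The deposited credibility intervals were apart and lower in replicate 2 for 9 members, against 9.39% of all genes, and apart and higher in replicate 2 for Scarna2, against 9.5% of all genes. None of the 12 also differed by 2-fold, and over all genes tested 257 did (2.21%). At so low a share, 0 of 12 does not set the members apart from other genes. There is 1 library on each side, so these are differences between 2 libraries, and the intervals leave out the spread between animals.

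The direction was shared by other short RNAs. Of 63 other noncoding genes of at most 420 bases with a mean count of at least 50, 60 were lower in replicate 2, with a median log2 ratio of -0.55. Some of these genes have identical values, such as the Rnu3b copies: the 63 genes hold 45 distinct values, of which 42 were lower in replicate 2. Markers of some other cell types also differed between the libraries. All 7 Schwann cell markers were lower in replicate 2, with a summed level of 108 TPM in replicate 2 against 471 TPM in replicate 1, and all 6 fibroblast markers were lower, with 901 TPM in replicate 2 against 1737 TPM in replicate 1. Neuron markers were near 0, with a summed level of 0.230 TPM in replicate 2 against 0.190 TPM in replicate 1 and Snap25 at 0 in both. Of the heart markers, Myh6 was higher in replicate 2, with 16.4 TPM in replicate 2 against 8.19 TPM in replicate 1, and Nppa was at 0 in both. In bulk tissue, fewer cells of a type and less RNA per cell can not be told apart, and the part of these cell types or of library preparation in the members' lower levels was not tested.

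Most members lie in a host gene on the same strand. Of the 150, 141 had a host (90 genes): 76 lay in an intron, 65 overlapped an annotated exon of some transcript of the host, and 9 had no host. Reads were found in both libraries for 12 of the 76, 16 of the 65 and 5 of the 9. Sequence shared with other transcripts matters for counting. Of the 41 members with any read, 17 were contained whole in a transcript of another gene and 31 shared a stretch of at least 40 bases with one. The other gene was not always the host. Scarna13, in an intron, shared a stretch with Mir3069, and the Snora43 entries, with no host, shared with each other. The 20 members with whole counts in both libraries held 1 of those 17, and the 21 with fractional counts held the other 16. Levels of members with fractional counts therefore rest on how the authors' tool divided reads between the RNA and its host, similar genes or overlapping entries.

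Levels of members did not rise with those of their hosts. Across the 28 hosted members with reads in both libraries, Spearman's rho between member and host mean TPM was -0.48, with -0.52 in replicate 2 and -0.46 in replicate 1. This is a description across genes that share libraries, several hosts and a TPM scale in which a short effective length raises the value. Noncoding hosts held 52 members in 23 genes, and the hosts had a median of 1.78 TPM over those members. The 10 detected members there had a median of 26.0 times the host's TPM, and 9 exceeded it. These ratios depend on the gene table's host levels. In the second transcript table, described below, Snhg1 had 26.2 TPM in replicate 2 and 44.8 TPM in replicate 1, against 4.14 and 5.27 TPM here. Snhg3 had 7.52 TPM in replicate 2 and 10.4 TPM in replicate 1 there, against 4.66 and 7.49 TPM here. The TPM scale also differs there, with the muscle markers at 168173 TPM in replicate 2 and 169126 TPM in replicate 1. Ribosomal protein genes hosted 33 members in 24 genes at a median of 151 TPM, and the 9 detected members had a median of 0.0578 times the host's TPM, with 1 above it. Other protein-coding genes hosted 56 members in 43 genes at a median of 14.3 TPM, and the 9 detected members had a median ratio of 0.529, with 4 above the host.

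The hosts of several leading members were measured in the same libraries. Rps3, which holds Snord15a and Snord15b, had 85.2 TPM in replicate 2 against 96.1 TPM in replicate 1, and Snhg3, which holds the Snora73 copies, had 4.66 TPM in replicate 2 against 7.49 TPM in replicate 1. Ipo7, the host of Snora23, had 30.1 TPM in replicate 2 against 29.5 TPM in replicate 1, and Snx5, the host of Snord17, had 15.1 TPM in replicate 2 against 17.6 TPM in replicate 1. Atg16l1, an autophagy gene that holds Scarna6, had 6.59 TPM in replicate 2 against 6.19 TPM in replicate 1. Snora23 and Scarna6 stood lower in replicate 2 while their hosts did not.

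Scarna10 and Snora31 mark the ends of the range of this ratio. Scarna10 overlaps an exon of Ncapd2, a condensin subunit gene, which had 3.26 TPM in replicate 2 against 2.97 TPM in replicate 1, and Scarna10 averaged 103 times its host. The RNA shares a stretch of at least 40 bases with Ncapd2 transcripts, and its count in replicate 1 was fractional. Snora31 lies in an intron of Tpt1, which had 1184 TPM in replicate 2 against 1158 TPM in replicate 1, and Snora31 itself had 5.09 TPM in replicate 2 against 7.15 TPM in replicate 1. Among the members that could not be counted, 87 had a host, at levels from 0.395 to 1420 TPM with a median of 9.02 TPM, and 23 of these hosts' entries were at 100 TPM or more. Snord59a, for example, lies in an intron of the ATP synthase gene Atp5b, which had 1516 TPM in replicate 2 against 1324 TPM in replicate 1.

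**Figure D5:**
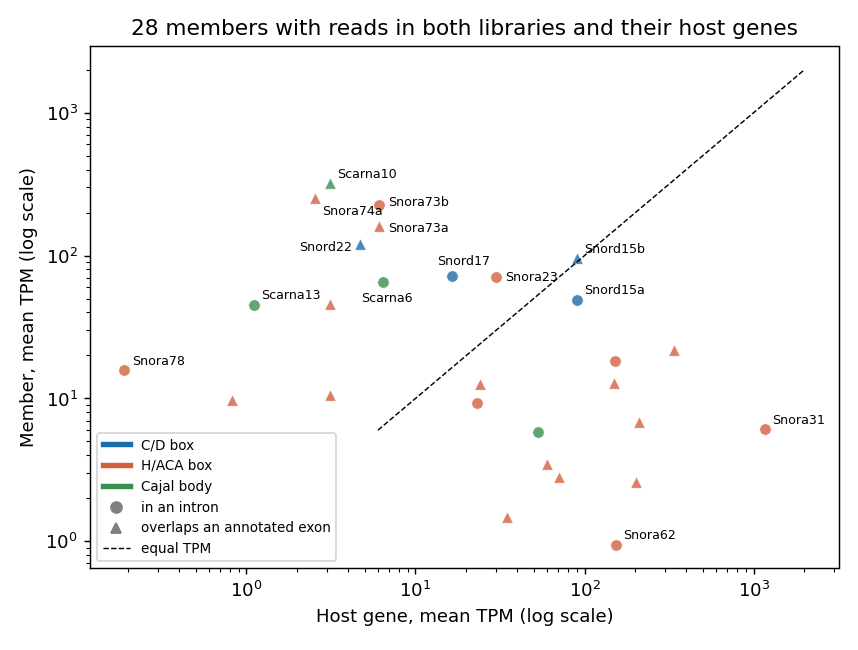
Mean TPM of the 28 detected members that have a host gene (y axis) against the mean TPM of the host (x axis), both on log scales, coloured by class, with circles for intronic members and triangles for members that overlap an annotated exon. Members in low hosts such as Snhg3 and Ncapd2 stand above the dashed line of equal TPM and members in ribosomal protein genes stand below it, apart from Snord15b.

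Genes in the fixed lists for the snoRNP machinery spanned a wide range. Shq1, of the assembly list, was the lowest at 0.710 TPM in replicate 2 against 0.520 TPM in replicate 1. Nop53, placed in the same list, was the highest at 32.9 TPM in replicate 2 against 30.5 TPM in replicate 1. It is a factor of ribosomal subunit maturation and not a snoRNP assembly factor in the strict sense. The next highest gene was Nop10, of the H/ACA core, at 18.7 TPM in replicate 2 against 20.3 TPM in replicate 1. The C/D core proteins summed to 39.8 TPM in replicate 2 against 45.5 TPM in replicate 1, with Snu13 the highest at 14.6 TPM in replicate 2 against 17.7 TPM in replicate 1, and Fbl, the methyltransferase, at 7.63 TPM in replicate 2 against 8.08 TPM in replicate 1. The H/ACA core proteins summed to 42.8 TPM in replicate 2 against 44.5 TPM in replicate 1, with Dkc1, the pseudouridine synthase, at 10.4 TPM in replicate 2 against 9.01 TPM in replicate 1. All 8 core genes were detected in both libraries, and their sums differed between C/D and H/ACA by less than the SD of the C/D sum (42.6 ± 4.02 and 43.7 ± 1.17 TPM, n = 2).

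Assembly factors (13 of 14 symbols found), with Nop53 included, summed to 92.3 TPM in replicate 2 against 88.6 TPM in replicate 1. Cajal body proteins (6 of 7 symbols found) summed to 15.5 TPM in replicate 2 against 14.7 TPM in replicate 1. Trimming and decay factors (4 of 5 symbols found) summed to 17.5 TPM in replicate 2 against 16.7 TPM in replicate 1. The symbols not found, Bcd1, Tcab1 and Papd5, are older names of Znhit6, Wrap53 and Tent4b, which were found, so no gene is missing from these lists. Coil, the scaffold of the Cajal body, had 1.34 TPM in replicate 2 against 1.19 TPM in replicate 1, and Wrap53, which brings Cajal body RNAs there, had 1.13 TPM in replicate 2 against 1.15 TPM in replicate 1. In these 5 lists 0 genes met the criteria for a difference between the libraries, and 2.21% of all genes tested did. With so few genes in the lists, 0 does not set them apart from that share. The noncoding host list (20 of 22 symbols found, 19 detected in both libraries) summed to 127 TPM in replicate 2 against 158 TPM in replicate 1. That sum includes Snrpn, which is a protein-coding gene, at 17.7 TPM in replicate 2 against 17.4 TPM in replicate 1. Of the 15 tested genes in the list 10 were lower in replicate 2, with a median log2 ratio of -0.34, and none met the criteria. Gas5 was the highest gene of the list, with 27.3 TPM in replicate 2 against 31.7 TPM in replicate 1.

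A second transcript table, made from the reads by another tool, gave reads to few members. Scarna2, the longest, had 433 estimated counts in replicate 2 and 398 in replicate 1. Scarna10 had 0 estimated counts in replicate 2 and 2 in replicate 1, and every other member had 0 in both. There the length minus the effective length of long transcripts had a median of 340 bases in replicate 2 and 335 bases in replicate 1. Other short genes showed the same: of genes with a single transcript and a mean gene-table count of at least 50, reads appeared in that table for 3 of 90 at up to 300 bases, 5 of 20 at 301 to 350 bases, 18 of 36 at 351 to 420 bases and 205 of 250 at 421 to 1000 bases. The levels of all members but Scarna2 therefore rest on the gene table alone.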

How the data were processed

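Total RNA-seq of gastrocnemius from 2 mice was read from tables that the authors deposited, on mm10 with annotation M21 per the file headers and notes deposited beside them. The sources used here name no aligner, quantifier or version. The gene table has the column layout of RSEM and the second transcript table that of kallisto. The first transcript table was not used. The gene table's expected counts are the authors' estimates of reads per gene, which can be fractional, and the second table holds estimated counts per transcript. Deposited TPM values are scaled by effective length over all listed features, 81881 in the gene table. Deposited FPKM values served as an alternative. The deposited bounds of the TPM credibility interval, taken as a signal with no level stated, and the deposited posterior means served as error and as alternatives. Nothing was pooled.

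All 55536 Ensembl genes were matched by identifier to M21, which gave symbols, types, exons, hosts and sequences. Members, gene lists and criteria were chosen with earlier results of these data known. A member was detected at an expected count above 0 in both libraries. Ratios are replicate 2 over replicate 1 of TPM + 0.1, over genes with a mean count of at least 50. A gene was said to differ at 2-fold or more with credibility intervals apart. Counts were called whole within 0.005. The ratio criteria were run on simulated counts with counting error only and changes larger than 2-fold. The simulation had no spread between animals and no reads shared between genes, so it does not bear on either. A count of 0 allows 3 reads, or 0.0774 CPM in replicate 2 and 0.0812 CPM in replicate 1. Wilson 95% intervals, floors and credibility intervals leave out the spread between animals. Named members were all Scarna genes, the 10 highest of the other classes by TPM and by count, the 3 highest and 3 lowest ratios, those nearest the read length and fixed families. A member that met this rule is not reported here. Snora28, Snora31, Snora47, Snora52, Snora62, Snord23, Snord59a and Snord67 were named after their values were seen. The Schwann cell and fibroblast lists, the length bins and the sequence windows were chosen after the values were seen. Tools were Python 3.11.15, pandas 2.3.3, NumPy 2.4.6, SciPy 1.17.1, statsmodels 0.14.6 and matplotlib 3.10.9.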

Additional observations from a re-analysis of the deposited data

How the results depend on the processing

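Of 78 recomputed values, 50 kept their direction and stayed within the spread between replicates or within 1.5 times the count. Leaving out 1 of the 2 libraries cannot move a class count or class TPM beyond that spread. Those values among the 50 were bound to stay within it and say nothing about stability. With the second transcript table, detection was 1 member in all, 0 of the C/D box, 0 of the H/ACA box and 1 of the Cajal body class. Its class counts were 0, 0 and 416.5, its class TPM 0, 0 and 137, and the Cajal body median, from Scarna2 alone, was 136.9 TPM. The median log2 ratio of members turned to 0.075 there, on Scarna2 alone, the only member with a mean count of at least 50 in that table. The snoRNP sums there were 63.6 TPM for the C/D core, 62.4 for the H/ACA core, 137 for assembly, 31.2 for Cajal body proteins and 24.6 for trimming. Requiring 10 counts in both libraries left 19 members, 10 of them H/ACA. Rescaled over Ensembl genes without 7SL, class TPM was 519.88 for C/D, 1336 for H/ACA and 841 for Cajal body RNAs. Members of at least 130 bases gave 229.9 TPM for C/D. With annotated length, an alternative chosen after seeing the data, class TPM was 144 for C/D and 499.98 for H/ACA, and the medians were 31.7 TPM for C/D and 3.06 TPM for H/ACA. With no filter on counts, 1 member met the criteria for a difference, Snora81, and 394 genes did against 257; a pseudocount of 1 gave 125 genes and a count of at least 200 gave 140.

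With 1 library left out, detection was 36 to 38 members in all, 5 to 6 for C/D, 25 to 26 for H/ACA and 5 to 7 for Cajal body RNAs. Class counts were 523 to 775, 2160 to 2810 and 3805 to 4604 in that order, class TPM 282 to 423, 771 to 1043 and 502 to 640, and medians 57.7 to 85.7, 6.47 to 12.1 and 53.4 to 77.1 TPM. The host comparison was not run in the second table, where all hosted members but Scarna10 were at 0, and C/D and H/ACA medians could not be had there. No paired analysis was possible because the series holds 1 group. Depth limits the low members: of 33 detected, 12 had a mean count of at least 50. The cause of these shifts was not tested.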

Other observations

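Small nucleolar and Cajal body RNAs under other symbols held more reads than the named ones. The 1365 other snoRNA genes took 6498 expected counts in replicate 2 and 9083 in replicate 1, with 57 detected in both libraries, and the 44 other scaRNA genes took 1471 in replicate 2 and 1827 in replicate 1, with 9 detected. The U3 RNA, a C/D box RNA of ribosomal precursor cleavage, is annotated as 4 Rnu3b genes on chromosome 11. Each had 606 counts (165 TPM) in replicate 2 and 885 (242 TPM) in replicate 1 under its 215-base entry, and 335 counts in replicate 2 and 448 in replicate 1 under its 216-base entry. The copies had identical values, and no copy can be given a level of its own. Rnu3a, the other U3 gene named here, had 69.4 counts in replicate 2 and 228 in replicate 1 under its 213-base entry, and 131 in replicate 2 and 125.29 in replicate 1 under its 214-base entry. The entries overlap and go in opposite directions, so the direction of Rnu3a is uncertain.

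Among unnamed entries picked after their values were seen, Gm22988 and Gm26447 stood above Scarna10, the highest member, by TPM in both libraries. By expected count both stood below Scarna10, which had 1883 counts in replicate 2 and 2692 in replicate 1. Scarna10 is longer, at 325 bases, so the order turned with the scale. The counts of Gm22988 and Gm26447 were fractional, so their levels also rest on how reads were divided. Gm22988, a snoRNA of 144 bases on chromosome 11 (69669635-69669778), had 506 counts (355 TPM) in replicate 2 and 566 (398 TPM) in replicate 1. Gm26447, of 129 bases on chromosome 16 (23111301-23111429), had 288 counts (303 TPM) in replicate 2 and 398 (420 TPM) in replicate 1. Gm25395, a scaRNA of 272 bases on chromosome 1 (87776938-87777209), had 775 counts (141 TPM) in replicate 2 and 974 (178 TPM) in replicate 1. It stood below Scarna10 by TPM in both libraries. Other structured short RNAs were far higher. The 7SL genes Rn7s1 and Rn7s2, with identical values, each had 922445 counts (144837 TPM) in replicate 2 and 1041249 (164064 TPM) in replicate 1. Their share of the TPM total lowers the TPM of every other gene. Rn7sk had 79369 counts in replicate 2 and 85297 in replicate 1, Rpph1 16361 in replicate 2 and 22756 in replicate 1, and Rmrp 5373 in replicate 2 and 7208 in replicate 1.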
